A study of Canis lupus familiaris with 26 samples.

Results

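Antigen presentation genes were examined in stroma of canine simple mammary adenomas, namely CD74, DLA-DRA, HLA-DRB1 and DLA-DQA1 of major histocompatibility complex (MHC) class II and B2M, the light chain of MHC class I. These 5 genes, of 18466 in the table, were chosen by name, and selected on their measured difference in level between tumour and normal stroma, so that this difference is given for them as a description and without a test. RNAseq had been performed on stroma cut by laser-capture microdissection from formalin-fixed, paraffin-embedded (FFPE) tissue of 13 female dogs of various breeds with spontaneous simple adenomas, which had been removed by curative surgery. Each dog gave adenoma-associated stroma (AAS; in the labels, cancer-associated stroma) and normal stroma from the same slides, next to unaltered mammary gland. Pair 14 was left out because its normal sample held only 83727 counts, which left 12 AAS and 12 normal stroma samples. The 12 dogs were 6 to 13 years old (median 9), and their paraffin blocks had been stored for 4 to 29 months (median 12). Normal stroma came from dogs that carried a tumour and not from healthy dogs, captured stroma is a mixture of cell types, and in such bulk samples fewer cells of a type and less RNA per cell cannot be told apart.

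MHC class II molecules are pairs of an alpha and a beta chain that present peptides from endocytosed proteins to CD4+ T cells. In humans and mice they are found mainly on dendritic cells, macrophages and B cells, although interferon gamma can induce them on fibroblasts and epithelium. Which cells carry them in dogs was not examined here. CD74, the invariant chain, binds the newly made pairs, keeps peptides out of their groove and leads them to endosomes. B2M joins the heavy chains of class I, which present peptides from the cytosol on nearly all nucleated cells.

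Total estimated counts ranged from 759119 to 1602797 in normal stroma and from 419770 to 1614120 in AAS. A single gene, which carries no symbol in the sources used here, took 84.9% of the 618441 counts of the AAS sample of pair 7 and left 93673 counts for all others, so that the values of this sample rest on few counts. All 5 members were kept by the filter on low counts, which retained 4544 genes. Levels are given as CPM, counts scaled to a common library size and here also normalized for library composition.

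CD74 was higher in AAS than in the matched normal stroma in all 12 pairs. Its level (ENSCAFG00000018101) was 5.12 CPM at the lowest, 22.4 at the median and 106 at the highest in normal stroma, and 84.1, 158 and 275 CPM in AAS. The groups overlapped narrowly, since 9 of 12 AAS samples lay above the highest normal sample, that of pair 3, and 11 of 12 normal samples lay below the lowest AAS sample, that of pair 5. The means were 36.7 ± 32.1 CPM in normal stroma and 166 ± 60.7 CPM in AAS (SD, n = 12 each), and the fitted log2 fold change was 2.18 with a standard error of 0.38. The spread between samples was wider in normal stroma, where the coefficient of variation was 87.3% against 36.5% in AAS.

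For DLA-DRA, the alpha chain of the DR molecule, 11 of 12 pairs had the higher level in AAS, and in pair 8 the samples were nearly level, at 183 CPM in normal stroma and 172 CPM in AAS. Its level (ENSCAFG00000000803) ran from 0 in the normal sample of pair 4 through a median of 40.5 to 217 CPM in normal stroma, and from 18.7 in pair 7 through a median of 236 to 603 CPM in AAS. The groups overlapped more than for CD74, with 6 of 12 AAS samples above the highest normal sample. The means were 69.0 ± 72.8 CPM in normal stroma and 301 ± 181 CPM in AAS (SD, n = 12 each), and the log2 fold change was 2.13 (standard error 0.50). The lowest AAS value, in pair 7, rests on 2 counts.

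HLA-DRB1, listed in the gene table under the symbol of the human beta chain of DR, was the only member whose groups did not overlap over the 12 pairs. Its level (ENSCAFG00000000806) ran from 0 through a median of 13.0 to 29.7 CPM in normal stroma and from 36.1 through a median of 67.0 to 132 CPM in AAS. Every AAS sample thus lay above every normal sample, which held for 2 of all 4544 genes (0.044%), the nearest being the normal sample of pair 3 and the AAS sample of pair 5. The means were 13.6 ± 8.39 CPM and 71.88 ± 26.4 CPM (SD, n = 12 each), and the log2 fold change was 2.37 (standard error 0.38). The AAS value of pair 7 rests on 9 counts. The normal sample of pair 14, which was left out, held 66.5 CPM from 9 counts, within the range of AAS.

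For DLA-DQA1, the alpha chain of the DQ molecule, 9 of 12 pairs had the higher level in AAS, and pairs 3, 7 and 12 had the higher level in normal stroma. Its level (ENSCAFG00000000812) ran from 0 in the normal sample of pair 6 through a median of 24.2 to 49.2 CPM in normal stroma, and from 9.34 in pair 7 through a median of 67.6 to 172 CPM in AAS. The groups overlapped, with 8 of 12 AAS samples above the highest normal sample. The means were 22.2 ± 15.7 CPM and 70.7 ± 46.6 CPM (SD, n = 12 each), and the log2 fold change was 1.67 (standard error 0.46). The AAS value of pair 7 rests on 1 count.

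B2M differed least between the groups. Its level (ENSCAFG00000013633) ran from 33.3 in pair 7 through a median of 294 to 605 CPM in pair 15 in normal stroma, and from 140 in pair 7 through a median of 452 to 1170 CPM in pair 9 in AAS. In 11 of 12 pairs AAS had the higher level, while the groups overlapped widely, with 4 of 12 AAS samples above the highest normal sample. In pair 3 the order was reversed, with 579 CPM in normal stroma and 302 CPM in AAS. The means were 288 ± 202 CPM and 558 ± 317 CPM (SD, n = 12 each), and the log2 fold change was 0.96 (standard error 0.37).

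**Figure D1:**
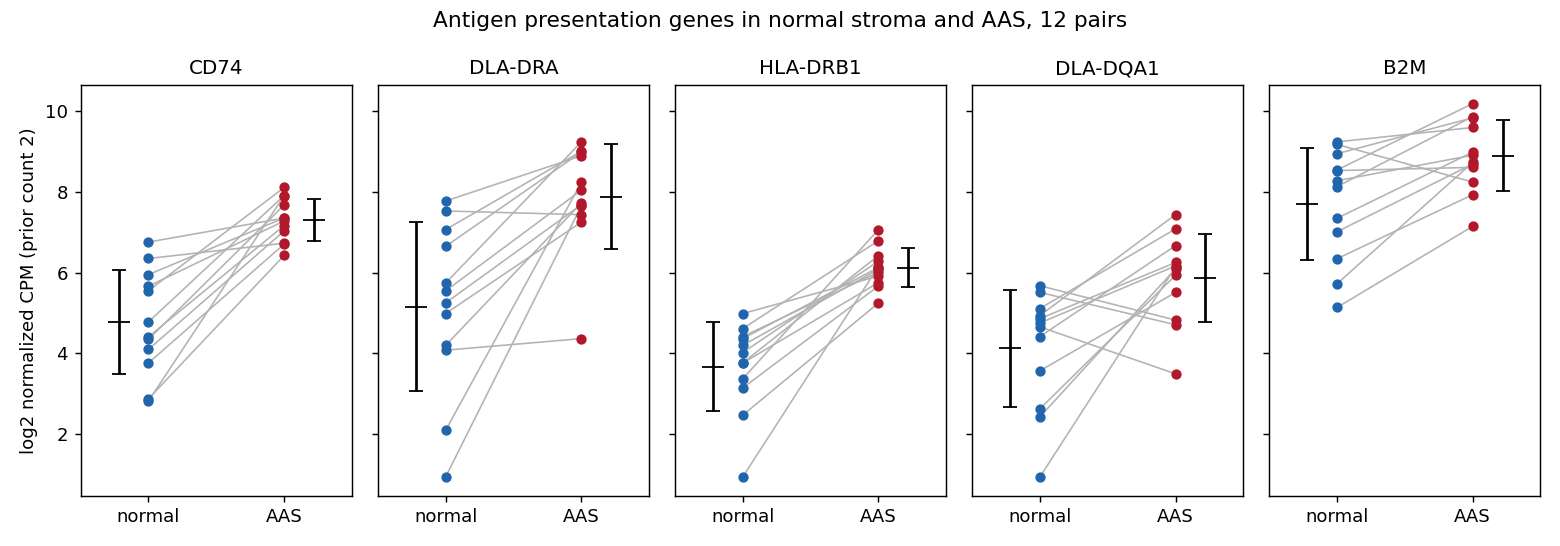
Level of the 5 members in normal stroma (blue) and AAS (red), as log2 normalized CPM with a prior count of 2, with a grey line for each of the 12 pairs and black bars for the mean ± SD of each group. The groups are apart for HLA-DRB1 and overlap for the other members, and the lines fall in 3 pairs for DLA-DQA1 and in 1 pair each for DLA-DRA and B2M.

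Across all genes, 82 of 4544 differed at an adjusted p below 0.05 and a log2 fold change beyond 1 (edgeR quasi-likelihood test, Benjamini-Hochberg), which is 1.8%, with 28 (0.616%) higher and 54 (1.19%) lower in AAS. CD74, DLA-DRA and HLA-DRB1 were among the 28, and DLA-DQA1 and B2M were not, which restates how the members were chosen. The median log2 fold change was 2.13 over the 5 members and 0.01 over all 4544 genes. When the pair was entered as a block, 115 genes (2.53%) passed, of which 29 (0.638%) were higher in AAS, and B2M was among them with a log2 fold change of 1.18 (standard error 0.25), while DLA-DQA1 was not. For comparison, 12 of 4544 genes (0.264%) were higher in AAS in all 12 pairs, CD74 and HLA-DRB1 among them.

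The pairs varied in the size of the difference between AAS and normal stroma, given here on the log2 CPM scale. Pair 4 had the largest median difference over the members, 3.31, and its difference was among the 3 largest for 4 of 5 members. In its normal sample, DLA-DRA and HLA-DRB1 were at 0 counts, and against the 6.37 CPM that 3 counts make in this sample the AAS levels of 200 and 69.2 CPM were at least 31.3-fold and at least 10.9-fold higher. In pair 6, DLA-DQA1 was at 0 counts in normal stroma and at 68.8 CPM in AAS, at least 19.6-fold higher against a floor of 3.51 CPM. Matched by age and storage time, the normal samples of pairs 4 and 6 had the lowest RNA quality of all normal samples in the study. These folds allow for counting error only, and the part of RNA quality in the values of 0 was not tested.

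At the other end, pairs 3 and 8 had median differences of 0.60 and 0.38. In pair 3 the differences of all 5 members were among the 3 smallest. The normal sample of this pair held the highest level of CD74, DLA-DRA, HLA-DRB1 and DLA-DQA1 among all normal samples, while its AAS levels of CD74 and DLA-DRA, 162 and 476 CPM, were above the AAS medians and those of HLA-DRB1, DLA-DQA1 and B2M, 58.5, 26.4 and 302 CPM, were below them.

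In the dog assembly UU_Cfam_GSD_1.0, RefSeq places DLA-DRA, HLA-DRB1 and DLA-DQA1 next to each other, between BTNL2 and DLA-DQB1, and HLA-DRB1 overlaps a long non-coding RNA gene and a pseudogene. CD74, between RPS14 and TCOF1, and B2M, between PATL2 and RNF4, lie elsewhere. Class II genes include some with closely related copies and many alleles among dogs, so that the split of reads between such genes is uncertain.

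Whether the members varied together from dog to dog was tested within each group, which the choice of the members did not use. Over 20 relations between members in both groups, none passed an adjusted p below 0.05 by Pearson's r (permutation test of 100000 resamples, two-sided, Benjamini-Hochberg), although 8 of 10 in AAS and 10 of 10 in normal stroma were positive, with a median r of 0.63 in AAS and 0.49 in normal stroma. In AAS, CD74 and B2M had r = 0.78 (permutation p = 0.00275, adjusted p = 0.0536) and rho = 0.79 (permutation p = 0.00347, adjusted p = 0.0347), and r was 0.68 without pairs 5 and 9. CD74 and DLA-DRA had r = 0.61 (permutation p = 0.0224, adjusted p = 0.0536) and rho = 0.82 (permutation p = 0.00160, adjusted p = 0.0320), and r was 0.60 without pairs 5 and 9. These were the only relations that passed by rho, and samples with more CD74 tended to hold more of the other member.

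HLA-DRB1 stood out from this pattern in AAS by its values, with r of -0.20 with DLA-DRA, its partner chain, -0.08 with DLA-DQA1, 0.24 with CD74 and 0.38 with B2M. The other 6 relations in AAS had r from 0.61 to 0.78. In normal stroma, HLA-DRB1 and DLA-DRA had r = 0.58 (permutation p = 0.0468, adjusted p = 0.0937; rho = 0.43), and the difference between the groups was not tested. Several relations rest on the sample with few counts and 1 other, since without pairs 7 and 11 the r of DLA-DRA in AAS fell from 0.66 to 0.12 with DLA-DQA1 and from 0.69 to 0.25 with B2M.

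**Figure D2:**
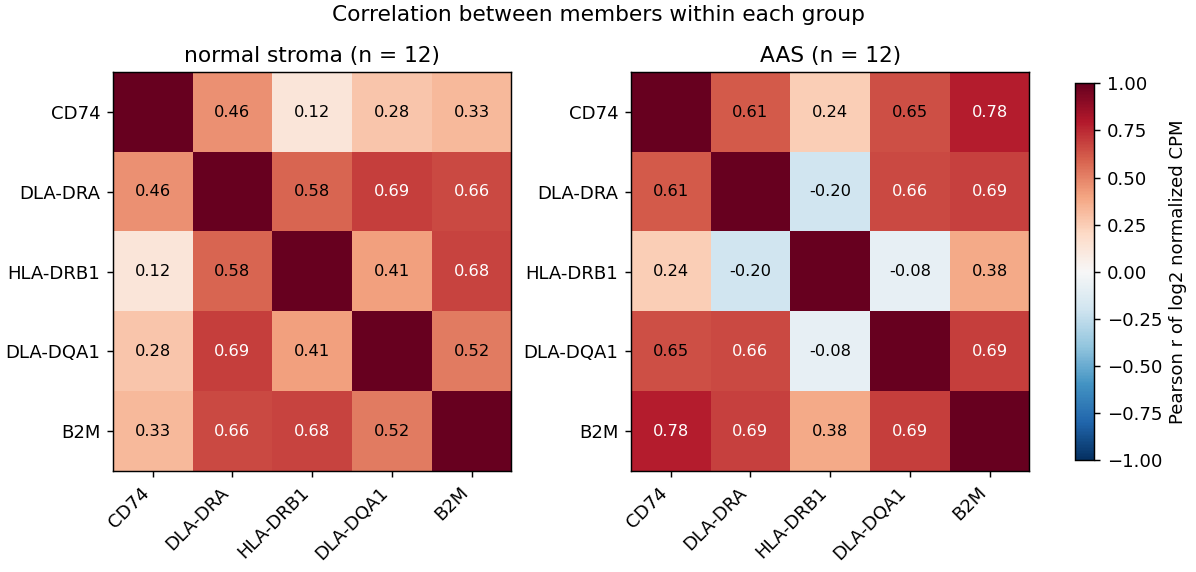
Pearson r of log2 normalized CPM between the members over the 12 samples of normal stroma (left) and of AAS (right), on a colour scale from -1 to 1. In AAS the row of HLA-DRB1 is paler than the other rows, with r from -0.20 to 0.38.

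The block of tissue had been stored for different times, and B2M fell with storage time in both groups. Over 20 relations of the members with storage time and age of the dog, B2M in normal stroma had r = -0.90 with months of storage (permutation p = 0.00017, adjusted p = 0.0034) and rho = -0.81 (permutation p = 0.0021, adjusted p = 0.042), and r was -0.80 without pairs 5 and 7, the longest stored. In AAS, r was -0.80 (permutation p = 0.00182, adjusted p = 0.0182) and rho -0.66 (permutation p = 0.0210, adjusted p = 0.163), and without pairs 5 and 7 r was -0.55 (permutation p = 0.102). The AAS relation thus rests in part on these pairs, and it missed the threshold when either was left out.

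The levels show the same. In the 8 pairs stored for up to 15 months, B2M lay between 161 and 605 CPM (median 370) in normal stroma and between 302 and 1170 CPM (median 641) in AAS. In the 4 pairs stored for 20 to 29 months it lay between 33.3 and 127 CPM (median 65.2) in normal stroma, below all of the others, and between 140 and 424 CPM (median 328) in AAS. Within the 8 pairs alone, a split chosen after seeing the data, r was -0.51 in normal stroma (exact permutation p = 0.198) and -0.49 in AAS (exact permutation p = 0.220).

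Over all 4544 genes the median r with storage time was -0.03 in normal stroma and 0.01 in AAS, and 2 genes in normal stroma and 8 in AAS, B2M included, had an r as low as that of B2M. The share of counts taken by the top gene also moved with storage time in normal stroma, at 13.6% to 45.3% in the 4 pairs stored longest and 10.5% to 22.9% in the other 8, and the number of genes with at least 10 counts was 3341 to 5508 against 4137 to 7470. In AAS the share was 14.5% to 84.9% (median 24.2%) against 5.53% to 29.3% (median 15.6%), and the genes with at least 10 counts were 1220 to 6474 against 2559 to 7744. Among normal samples, RNA quality in the study was lowest in pairs 4 and 6, both among the 4 stored longest. The part of these measures in the relation of B2M was not tested.

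The class II members had r with storage time between -0.62 and -0.32 in both groups, and none passed (lowest adjusted p = 0.126, permutation test). Without pairs 5 and 7, r in normal stroma was -0.82 for DLA-DQA1 and -0.65 for DLA-DRA (permutation p = 0.00527 and 0.0416, not adjusted). It was -0.47 for HLA-DRB1 and 0.08 for CD74. In AAS, r without these pairs lay between -0.40 (HLA-DRB1) and -0.02 (DLA-DRA). None of the 10 relations with the age of the dog passed. The difference between AAS and normal stroma within a pair, a measure added after seeing the data, did not pass against storage time for any member, with r = 0.52 for B2M (permutation p = 0.0872, adjusted p = 0.436 over 5 members) and r from 0.04 to 0.28 for the others. These r depend on the 2 longest stored pairs. Without pairs 5 and 7, r was 0.70 for DLA-DRA (permutation p = 0.0245, not adjusted) and 0.55 for DLA-DQA1. It was 0.48 for B2M, 0.30 for HLA-DRB1 and -0.17 for CD74.

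**Figure D3:**
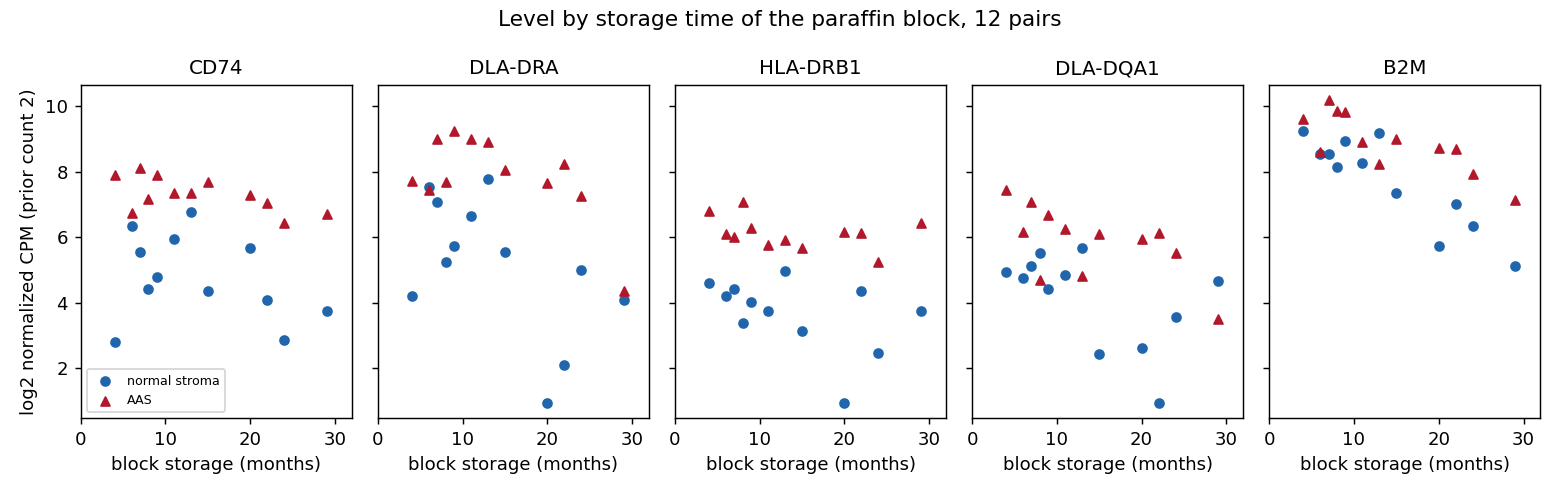
Level of the 5 members, as log2 normalized CPM with a prior count of 2, against the months the paraffin block had been stored, for normal stroma (blue circles) and AAS (red triangles) of 12 pairs. The B2M points fall from left to right in both groups, and the 4 normal samples stored 20 months or longer lie below the other 8.

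Few other genes of antigen presentation could be followed, because 3302 of the 18466 identifiers are paired with a symbol in the sources used here. Of 24 further genes of the class II pathway, 7 had an identifier and 4 passed the filter. Of these, 0 were called (adjusted p below 0.05 and log2 fold change beyond 1) by edgeR, with 0 at an unadjusted p below 0.05 and 0 called by DESeq2. Since 1.8% of all 4544 genes were called, 0 calls among so few genes cannot show that a list is unchanged. The same limit holds for the lists below. Their median log2 fold change was -0.08, against 0.01 over all genes. DLA-DOA, a chain of DO, which restrains peptide loading in B cells, was at 15.3 ± 17.2 CPM in normal stroma and 19.6 ± 16.9 CPM in AAS (SD, n = 12 each; log2 fold change 0.31, adjusted p = 0.944, edgeR).

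The tested subunits of the factors that bind class II promoters were not called. NFYB had a log2 fold change of -0.47 (adjusted p = 0.835, edgeR), NFYC of 0.35 (adjusted p = 0.907) and RFXANK, named after its values were seen, of -0.56 (adjusted p = 0.808). CIITA, the master regulator of class II transcription, did not pass the filter and was also named after its values were seen. It was at 4.27 ± 5.57 CPM in normal stroma and 13.3 ± 13.2 CPM in AAS (SD, n = 12 each), with the higher level in AAS in 9 of 12 pairs and an adjusted p of 0.536 with a looser filter, a mean of 5 counts or more (edgeR).

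Of 21 further genes of the class I pathway, 8 had an identifier, 4 passed the filter and 0 were called by edgeR, with 1 at an unadjusted p below 0.05 (DLA-64) and 0 called by DESeq2. All 4 had a positive log2 fold change, with a median of 0.88. DLA-64, a class I heavy chain gene, was at 17.7 ± 16.2 CPM in normal stroma and 38.1 ± 24.8 CPM in AAS (SD, n = 12 each), higher in 10 of 12 pairs (log2 fold change 1.11, adjusted p = 0.315, edgeR). The heavy chain gene DLA-12 had 0.98 (adjusted p = 0.659) and CANX, a chaperone that folds heavy chains before B2M joins, 0.33 (adjusted p = 0.752). The heavy chains have near-identical relatives, and their counts are uncertain.

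Interferons are known inducers of class I and class II genes. Of 39 genes of interferon signalling and response, 10 had an identifier, 8 passed the filter and 0 were called by edgeR, with 2 at an unadjusted p below 0.05 (IFNGR1, lower in AAS, among them) and 0 called by DESeq2. The median log2 fold change was 0.45, against 0.01 over all genes, and 6 of the 8 had a positive log2 fold change. The kinase TYK2 had a log2 fold change of 0.32 (adjusted p = 0.520) and the ubiquitin ligase DTX3L of -0.28 (adjusted p = 0.598, edgeR).

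Of 14 co-stimulatory molecules and partners of CD74, 3 had an identifier, 2 passed the filter and 0 were called by edgeR, with 1 at an unadjusted p below 0.05 (CD44 lower) and 0 called by DESeq2. CD44, which signals with CD74 on the cell surface, was at 103 ± 47.0 CPM in normal stroma and 53.8 ± 27.2 CPM in AAS (SD, n = 12 each; log2 fold change -0.93, adjusted p = 0.0969, edgeR). CD274, the ligand of PD-1, had a log2 fold change of -0.06 (adjusted p = 0.985), and PDCD1LG2, its relative, did not pass the filter. PDCD1LG2 was at 5.79 ± 3.95 CPM in normal stroma and 13.1 ± 9.08 CPM in AAS (SD, n = 12 each), higher in AAS in 10 of 12 pairs. With the looser filter its log2 fold change was 1.18 (adjusted p = 0.574, edgeR), and these values were added after they were seen.

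**Figure D4:**
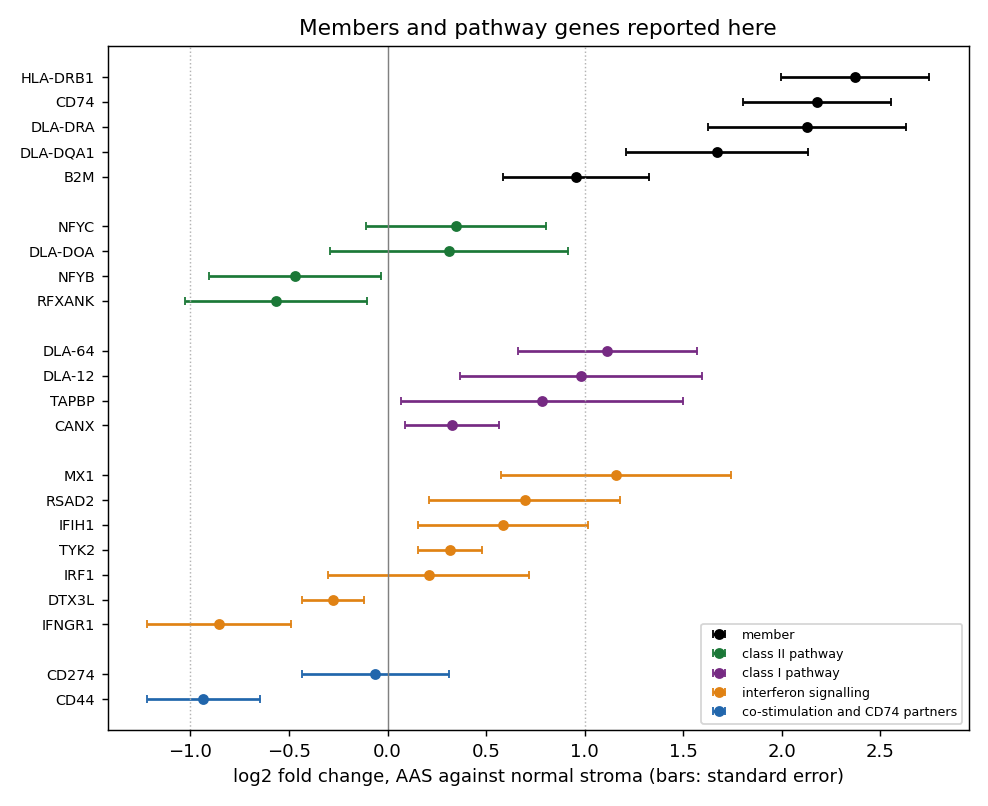
Log2 fold change in AAS against normal stroma (points) with its standard error (bars) for the 5 members (black) and for the listed genes of the class II pathway (green), class I pathway (purple), interferon signalling (orange) and co-stimulation and CD74 partners (blue) that passed the filter and are reported here. Dotted lines mark log2 fold changes of -1 and 1, and each class II member lies to the right of all listed genes.

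Markers of cells that carry class II were set beside the members. Of 15 macrophage markers 6 had an identifier and 5 passed the filter, and 0 were called by edgeR, with 1 at an unadjusted p below 0.05 (MRC1 lower) and 0 called by DESeq2. Their summed level ranged from 446 to 1003 CPM in normal stroma and from 465 to 1428 CPM in AAS. AIF1 had a log2 fold change of 0.27 (adjusted p = 0.824) and MRC1 of -0.49 (adjusted p = 0.430, edgeR). CSF1R, CD163 and ITGAM, named after their values were seen, had -0.84, -0.77 and 0.24 (adjusted p = 0.665, 0.656 and 0.773, edgeR). The median log2 fold change of the 5 markers was -0.49, with 2 positive, against 0.01 over all genes.

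Of 12 markers of B and plasma cells 4 had an identifier and all 4 passed the filter, and their summed level was 71.96 to 616 CPM in normal stroma and 182 to 1380 CPM in AAS. IGHM, the heavy chain of IgM, whose counts near-identical immunoglobulin genes make uncertain, rose from 64.1 ± 89.8 to 364 ± 342 CPM (SD, n = 12 each; log2 fold change 2.47, adjusted p = 0.0332, edgeR), and was called in 17 of 23 fits, while without pair 4, 6, 7, 12, 13 or 15 its adjusted p rose to at most 0.0986. TNFRSF17, a plasma cell receptor, had 0.57 (adjusted p = 0.822). Of 9 dendritic cell markers only CD209, a lectin that tissue macrophages also carry, had an identifier, and it fell from 324 ± 228 to 23.5 ± 32.5 CPM (log2 fold change -3.70, adjusted p = 0.000100, edgeR), lower in all 12 pairs. Of 9 general leukocyte markers only CD37 had an identifier and it did not pass the filter, with 0 to 55.0 CPM in normal stroma (mean 6.92 ± 15.3, median 2.61) and 0 to 36.0 CPM in AAS (mean 14.1 ± 12.7, median 9.80; SD, n = 12 each). CD37 had the higher level in AAS in 9 of 12 pairs, and with the looser filter its log2 fold change was 1.03 (adjusted p = 0.809, edgeR). None of 11 T cell markers had an identifier.

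Markers of other cells were read in the same way. Of 17 epithelial markers 4 had an identifier, 2 passed the filter and 0 were called by edgeR (1 at an unadjusted p below 0.05, 0 called by DESeq2), with a summed level of 99.4 to 238 CPM in normal stroma and 95.5 to 441 CPM in AAS. CDH1 had a log2 fold change of 0.54 (adjusted p = 0.438) and EPCAM of 0.07 (adjusted p = 0.983, edgeR). KRT15, a keratin of basal epithelium that did not pass the filter and was named after its values were seen, was at 4.83 ± 5.69 CPM in normal stroma and 46.6 ± 59.1 CPM in AAS (SD, n = 12 each), and its adjusted p was 0.0355 with the looser filter (edgeR). All 10 of 14 fibroblast markers with an identifier had negative log2 fold changes, and DCN (-1.96, adjusted p = 0.00996) and FBLN1 (-1.71, adjusted p = 0.00508, edgeR) fell. The collagens COL1A1 and COL3A1 had -1.26 (adjusted p = 0.301) and -1.03 (adjusted p = 0.430). COL1A2, named after its values were seen, had -1.36 (adjusted p = 0.0532, edgeR), with the lower level in AAS in all 12 pairs, and was called in 12 of 23 fits, among them that with the pair as a block (adjusted p = 0.00204). In all, 7 of the 10 were at an unadjusted p below 0.05, and 3 were called with the block and 3 by DESeq2. The summed level was 1840 to 21615 CPM in normal stroma and 623 to 7259 CPM in AAS, and DCN and FBLN1 were each at 0 in 1 AAS sample and COL6A2, named after its values were seen, in 2. Of 12 endothelial markers 2 had an identifier and KDR passed the filter, with -0.44 (adjusted p = 0.850), and the sum was 9.22 to 89.2 CPM in normal stroma and 0 to 63.4 CPM in AAS. The part of cell composition in the members' difference was not tested.

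Within a group, the summed marker levels followed the members in 1 of 70 relations. In normal stroma B2M and CD209 had r = 0.89 (permutation p = 0.0001, adjusted p = 0.007) and rho = 0.83 (permutation p = 0.00141, adjusted p = 0.0987), and r was 0.85 without pairs 7 and 8, although the relation missed the threshold when pair 7 alone was left out. In AAS no relation passed, those with the macrophage list and with the B and plasma cell list included. The strongest there, DLA-DQA1 with the epithelial list, had r = -0.73 (permutation p = 0.00689, adjusted p = 0.241).

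The genes whose level followed that of the class II members most closely were sought over all 24 samples, after the mean of each group was subtracted, by their Pearson r with the mean of the standardized CD74, DLA-DRA, HLA-DRB1 and DLA-DQA1. Among the 4544 genes, B2M, which is no part of that mean, ranked the fifth with r = 0.77. The 5 closest genes with a symbol were TMEM30A, a subunit of lipid flippases (0.74), GANAB, the catalytic subunit of glucosidase II (0.71), WDFY4, a protein with a BEACH domain (0.69), RPS15A, a ribosomal protein (0.68), and RXRB, a retinoid X receptor (0.67). Within AAS alone r ranged from 0.46 for TMEM30A to 0.70 for WDFY4, and within normal stroma from 0.70 for RXRB to 0.87 for TMEM30A. These r share the libraries and their depth, and are given as a description.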

How the data were processed

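Stroma of 13 canine simple mammary adenomas, with 1 AAS and 1 normal stroma sample per dog, was profiled by RNAseq with a stranded total RNA kit for low input. The authors deposited estimated counts per gene, made by pseudo-alignment to Ensembl transcripts of CanFam3.1 (kallisto 0.44.0, bias correction on) and summed over transcripts with tximport, without normalization. The strand setting is not given in the sources used here. The stored estimated counts were whole numbers, so rounding changed 0 values. Groups and pair numbers came from the labels, pair 14 was left out as in the study, and the samples of a pair come from the same dog. The deviations of same-numbered samples from their group means correlated with r from -0.03 to 0.40 (mean 0.13), against a mean of -0.01 for other samples.

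Counts were filtered (filterByExpr), normalized (TMM) and tested without a pair term, which the study does not state, by edgeR 4.0.16 (quasi-likelihood test; R 4.3.3), with Benjamini-Hochberg adjustment over 4544 genes. A gene was called at an adjusted p below 0.05 and a log2 fold change beyond 1. Standard errors were derived from the log2 fold change and its F statistic. The fit was tested on simulated counts. Alternatives were a replicate block, DESeq2 1.42.0, RLE size factors, other filters, all 13 pairs, RNA quality as a covariate, omission of the 10 genes of highest total, and omission of each pair. Log2 CPM carries a prior count of 2. Relations were tested by permutation (scipy 1.17.1, 100000 resamples), and marker sums had 10 CPM added before the log2.

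The members and gene lists were chosen with earlier results of these data known. Symbols came from the gene lists of the study, 1766 identifiers from a list sorted by significance of AAS against normal stroma and 1864 from a second list, which favours symbols of changed genes. Named genes are the members, the genes of each pathway list that were called, the up to 3 with the highest mean CPM of each pathway list, the 5 closest in pattern to class II, and of each marker list those called and the up to 2 with the highest mean CPM. A pathway gene that this rule names is not reported here, although the counts and medians of its list include it. Depth ranged from 419770 to 1614120 counts, and the biological coefficient of variation was 66.7%. Floors of 3 counts cover counting error only. No genome or sequence was used here.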

Additional observations from a re-analysis of the deposited data

Results flagged for a closer look

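Pair 14, which the comparisons do not use, held signal for all 5 members in its AAS sample (824086 counts) above the normal samples of the other 12 pairs. Normalized together with the other 12 pairs, its AAS sample held 167 CPM of CD74, 322 CPM of DLA-DRA, 43.0 CPM of HLA-DRB1, 149 CPM of DLA-DQA1 and 894 CPM of B2M, each above the normal samples of the other 12 pairs. In its own normal sample, where 83727 counts were read in all, CD74 was at 51.7 CPM (7 counts), DLA-DRA at 88.6 CPM (12 counts), HLA-DRB1 at 66.5 CPM (9 counts), DLA-DQA1 at 14.8 CPM (2 counts) and B2M at 222 CPM (30 counts). AAS was thus higher for 4 of 5 members in this pair and lower for HLA-DRB1, from few counts in the normal sample. With pair 14 included, the groups of HLA-DRB1 would overlap.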

How the results depend on the processing

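CD74, DLA-DRA and HLA-DRB1 were called in 23 of 23 fits, DLA-DQA1 in 10 and B2M in 3, each of the 3 with the pair number as a block (replicate block). Over these fits the log2 fold change lay between 2.01 and 2.62 for CD74, 1.96 and 2.70 for DLA-DRA, 2.10 and 2.55 for HLA-DRB1, 1.51 and 1.96 for DLA-DQA1, and 0.84 and 1.25 for B2M. Without each pair in turn it lay between 2.01 and 2.45, 1.96 and 2.41, 2.20 and 2.55, 1.51 and 1.91, and 0.84 and 1.15 in the same order. The count of called genes was 82, and 115 with the replicate block, 134 by DESeq2, 227 by DESeq2 with the replicate block, 153 with a mean of at least 5 counts and 71 to 99 without each pair. Without a filter on low counts 1690 of 18441 genes were called, 1258 of them higher in AAS, against 28 of 82. Pathway genes were called in few settings, namely 1 of the class I list by DESeq2 with the replicate block (DLA-64) and 1 other without a filter (SEC61B, at 0 in all 12 normal samples), IFNGR1 as 1 of the interferon list (DESeq2 with the replicate block) and CD44 as 1 of the co-stimulation list (all 13 pairs), while without each pair these lists had 0 to 0, 0 to 1 (1 without pair 8) and 0 to 0 calls and the class II list 0 to 0. Relations between members that passed by r rose from 0 to 6 in AAS and to 3 in normal stroma without the 10 genes of highest total, where adjusted p-values near 0.0536 crossed the threshold, and ranged from 0 to 3 in both groups without each pair. Relations with storage time or age ranged from 0 to 2 in AAS (0 without pair 5 or pair 7) and 1 to 1 in normal stroma, and those with marker lists from 0 to 1 in both groups. B2M against storage time had r from -0.88 to -0.68 in AAS (adjusted p 0.0041 to 0.157, passed in 15 of 17 settings) and from -0.94 to -0.85 in normal stroma (17 of 17). In the 8 pairs stored for up to 15 months it was -0.49 and -0.51. The causes of these shifts were not tested. Low counts limit the members in the AAS sample of pair 7 and in the normal samples of pairs 4 and 6, where members were at 0.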
